A study of Mus musculus with 6 samples.

Results

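The cytosolic ribosomal protein genes were followed in NSC-34 cells, a motor neuron-like mouse line derived from a fusion of neuroblastoma cells and motor neurons of the spinal cord. Members were chosen by symbol alone, as every listed gene whose symbol has the form Rpl or Rps plus a number, with at most 1 letter and 1 further digit, together with Rplp0, Rplp1, Rplp2 and Rpsa. This gave 84 of the 23038 genes in the files. They comprised 43 genes of the large subunit, 31 of the small subunit (Rpsa included), 3 of the stalk and 7 paralogs of canonical genes (Rpl3l, Rpl7l1, Rpl10l, Rpl22l1, Rpl39l, Rps27l and Rps4y2). By their positions in the GENCODE M21 annotation of GRCm38, they lie on 19 chromosomes.

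Messenger RNA was sequenced from 6 libraries of cultured NSC-34 cells. In 3 of them the cells had received control siRNA (siNC), and in the other 3 siRNA against Qk (siQk), the gene of the Quaking RNA-binding proteins. The question put to the data is which messages differ in abundance once Quaking is depleted. By the labels the 3 libraries of a group are biological replicates, and 3 different siRNAs against Qk were used without a statement of which library received which, so a siRNA and its library cannot be told apart. All cells belong to 1 line, sampled at 1 time point after transfection.

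A ribosome is built from ribosomal RNA and a nearly fixed set of proteins, most of which are present in a single copy per particle. Their messages are among the most abundant in growing cells. Many begin with a cytosine followed by an unbroken run of pyrimidines, the 5′ terminal oligopyrimidine (TOP) tract, through which growth signals control their translation. The genes are also known for the large number of processed pseudogenes, intronless copies of their messages scattered over mammalian genomes, that resemble the parent mRNA closely.

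Library totals ran from 43000503 to 53565950 counts. Qk itself stood at 9.67, 8.18 and 14.9 RPKM (the authors' reads per kilobase of exon, scaled by the library's total) in siNC and at 1.39, 1.71 and 1.10 RPKM in siQk. On the log2 scale siQk was lower by a fold change of -2.997 ± 0.34 (SE). The adjusted p was 0.0149 in edgeR's quasi-likelihood test with Benjamini-Hochberg adjustment over 12665 genes, and Qk was lower in each library labelled siQk than in any labelled siNC. Of 14 markers of motor neurons and neurons, 9 passed the filter on low values, Prph and Tubb3 among them, whereas Chat, the acetylcholine-synthesizing enzyme of motor neurons, did not exceed 0.141 RPKM and Mnx1 did not exceed 0.0944 RPKM. All 6 noradrenergic markers passed, with a summed level of 313 to 492 RPKM. The summed level of 4 astrocyte markers reached 0.217 RPKM at most and that of 4 microglia markers 0.218 RPKM, with Aqp4, Cx3cr1 and P2ry12 at 0 counts in every library.

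The ribosomal protein genes held between 2.27% and 2.94% of all counts. The plot of levels per library shows how widely they differed, although the canonical proteins are used in near-equal numbers. Over the 77 canonical genes, the mean level of the 6 libraries ran from 2.77 to 3437 RPKM with a median of 146 RPKM, against a median of 10.6 RPKM over all genes tested. Of the 10 genes with the highest RPKM in these cells 7 were ribosomal protein genes, as were 22 of the first 100. At the other end, 19 of the 77 canonical genes had under 20 RPKM and 10 had under 10 RPKM. The 10 members with the most counts held 54.2% of the counts of all 84, and the 42 members with the fewest held 3.57%.

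**Figure D1:**
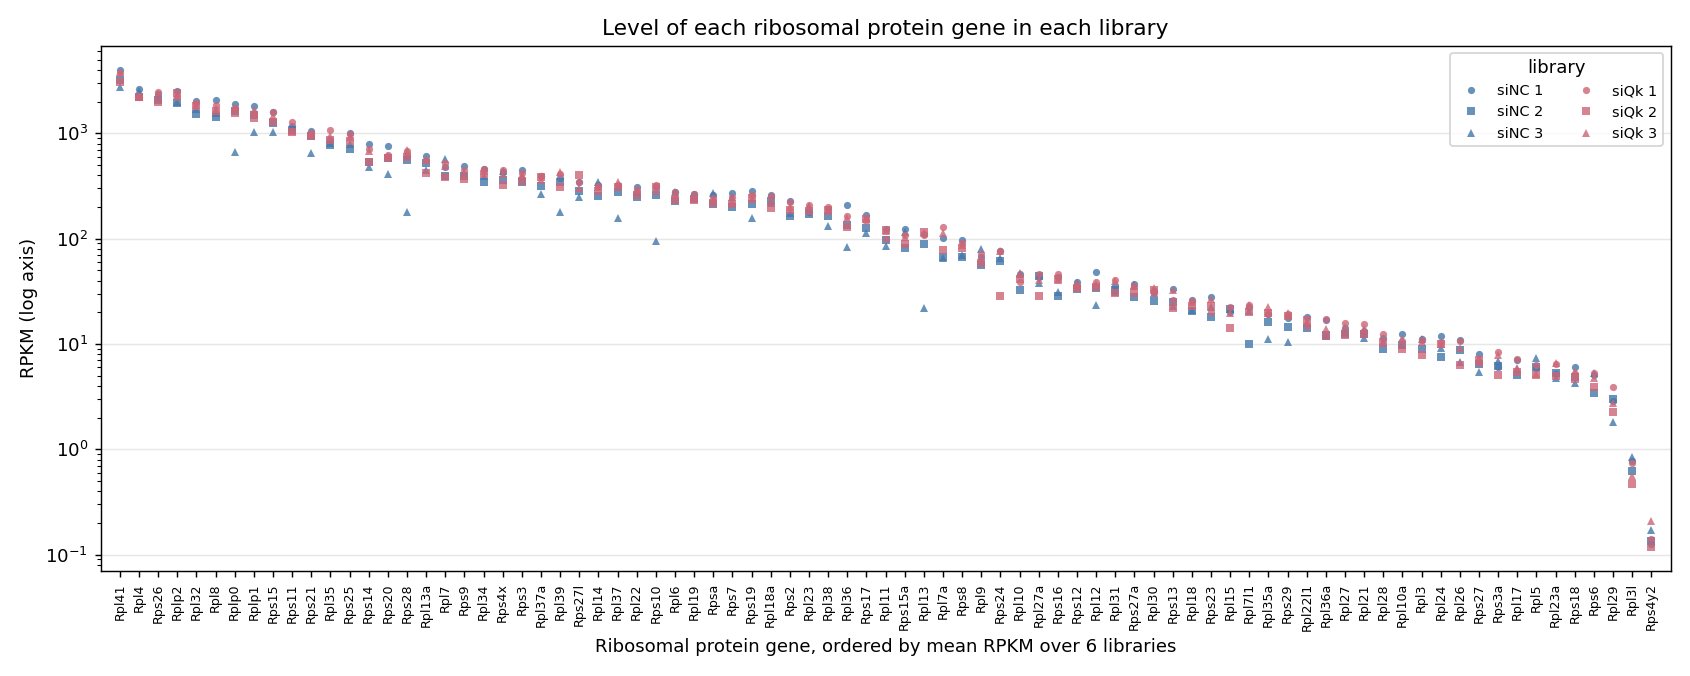
RPKM (log axis) of ribosomal protein genes with a count in every library, ordered by their mean, with 1 point per library (blue siNC, red siQk; circle, square and triangle for replicates 1, 2 and 3). Levels run from 3437 RPKM for Rpl41 to 0.150 RPKM for Rps4y2, and single blue triangles of siNC replicate 3 hang below the other libraries at Rplp0, Rps28, Rps10 and Rpl13.

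Rpl41, which encodes a very short basic peptide of the large subunit, had the highest level. It measured 4013, 3180 and 2769 RPKM in siNC and 3765, 3062 and 3833 RPKM in siQk. Rpl4, a large subunit protein that lines the exit tunnel of the nascent chain, was next at 2646, 2194 and 2527 RPKM in siNC and 2201, 2196 and 2206 RPKM in siQk. The highest member of the small subunit, Rps26, which lies near the exit of the mRNA channel, measured 2365, 2070 and 2184 RPKM in siNC and 2486, 1989 and 2373 RPKM in siQk. The ranges of both groups overlapped for each of these genes, and the ranges of Rpl4, Rps26 and the stalk gene Rplp2 (a mean of 2226 RPKM) over the libraries also overlapped one another. Rpl32 of the large subunit followed at 1806 RPKM.

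The canonical genes with the lowest levels belonged to the same particle. Rpl29, a small basic protein of the large subunit, measured 2.88, 3.00 and 1.80 RPKM in siNC and 3.89, 2.26 and 2.78 RPKM in siQk. Rps6, the small subunit protein that is phosphorylated by S6 kinase, measured 5.04, 3.42 and 5.34 RPKM in siNC and 5.35, 3.92 and 4.78 RPKM in siQk. Rps18 of the small subunit head (5.10 RPKM) and Rpl23a, which lies at the tunnel exit (5.57 RPKM), were close by. All 4 were low in every library. The ranges of Rps6, Rps18 and Rpl23a over the libraries overlapped, and that of Rpl29 reached only into the range of Rps6. Rpl29 rested on 55 to 126 counts per library and Rps6 on 226 to 358.

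The level of a canonical gene varied with how much of its mRNA is also present elsewhere in the annotated transcriptome. For each gene, the share of 75-base windows of its GENCODE M21 mRNA that occur unaltered in a transcript of another gene was computed, 75 bases being the length of 1 read. The median over the 77 canonical genes was 42.6% of windows. For 11 genes with under 10% of windows shared, the median level was 593 RPKM (103 to 2328 RPKM). For 35 genes with 10% to 50% shared it was 264 RPKM, and for 31 genes with over 50% shared it was 26.9 RPKM (2.77 to 401 RPKM). Across the 77 genes Spearman's rho between the shared percentage and the mean level was -0.63 (Pearson's r with log10 RPKM -0.61). This is a description across genes, which share libraries and are not independent. With lengths taken from the GENCODE mRNA in place of the lengths in the files, a choice made after seeing the data, rho was -0.60.

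**Figure D2:**
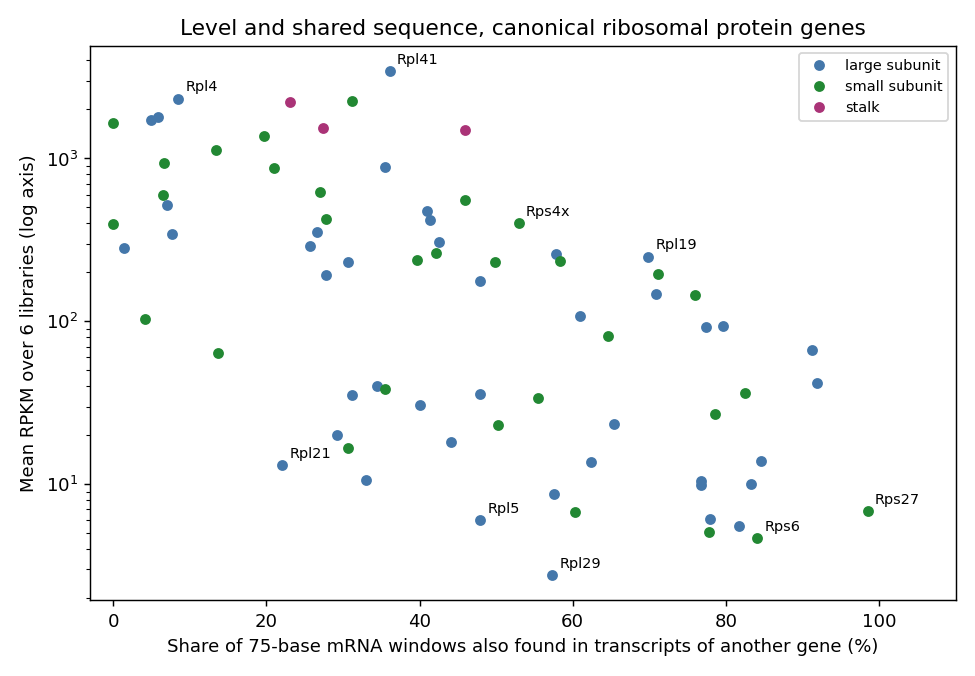
Mean RPKM over 6 libraries (log axis) of the 77 canonical ribosomal protein genes against the percentage of 75-base windows of their mRNA found in transcripts of other genes. All 11 genes with under 10% of windows shared lie above 100 RPKM, and no gene with over 50% of windows shared reaches 500 RPKM.

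Rps3 of the small subunit shared no window with another gene and measured 395 RPKM (chosen for display after its values were seen). Rps6 shared 84.1% of its windows and Rps27 98.5%. The exceptions were genes such as Rpl5, the 5S rRNA-binding protein, with 47.9% of windows shared and 5.99 RPKM, and Rpl15 with 29.3% and 19.96 RPKM. A search of annotated transcripts with at least 95% identity over at least 50% of the mRNA found 409 copies of the canonical genes, 392 of them annotated as pseudogenes. At least 1 such copy was found for 54 of the 77 genes, and Rpl7a had the most with 38. Only 7 of the 409 copies are listed as genes in the files. How reads that fit a gene and its copies equally well were assigned is not given in the sources used here, so RPKM of genes with many shared windows are uncertain as measures of mRNA level, and the part of shared sequence in the order of levels was not tested. The exon length in the files also differed from the mRNA for some members. It was under 50% of the GENCODE mRNA for 8 canonical genes, with an extreme of 24 bases for Rpl11, whose 107.6 RPKM becomes 3.10 per kilobase of mRNA.

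Rps27l, a known target of p53 and a paralog of the small subunit gene Rps27, was the only one of the 7 paralogs to lie above its parent. Rps27 measured 8.0, 6.41 and 5.42 RPKM in siNC and 6.66, 7.03 and 7.31 RPKM in siQk. Rps27l measured 343, 281 and 248 RPKM in siNC and 348, 406 and 303 RPKM in siQk. By RPKM the paralog was therefore 41.5 to 57.8 times its parent in every library. With 98.5% of its windows shared, the RPKM of Rps27 is uncertain as a measure of mRNA level, and so is this ratio. The coding sequences of both genes have 255 bases, of which 194 (76.1%) are the same. The first 75 coding bases are given because they show how far reads from these genes can be told apart, with the 22 bases at which Rps27l differs in capitals:
Rps27: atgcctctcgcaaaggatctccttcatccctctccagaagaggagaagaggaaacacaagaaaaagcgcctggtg
Rps27l: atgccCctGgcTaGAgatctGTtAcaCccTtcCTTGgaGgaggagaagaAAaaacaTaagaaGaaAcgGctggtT
The stretch of Rps27 is held without a change by 1 other gene, the intronless Rps27rt, and only 12% of the windows of Rps27l occur in another gene. A read from this stretch thus separates Rps27 from Rps27l but not from Rps27rt.

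For the other paralogs the parent was the higher gene. Rpl22l1 stood at 5.16% to 6.38% of Rpl22, its RNA-binding parent in the large subunit, and Rpl7l1, a factor of large subunit assembly, at 2.56% to 5.19% of Rpl7. Rpl3l, the form of Rpl3 found in striated muscle, measured 0.468 to 0.846 RPKM, which was 5.34% to 7.60% of Rpl3. Rpl3 lies at the peptidyl transferase centre and itself read only 10.1 RPKM, with 83.2% of its windows shared. Rps4y2, which GENCODE M21 lists as Rps4l, a transcribed processed pseudogene with 1 exon, stayed at or below 0.207 RPKM against a mean of 401 RPKM for Rps4x. The testis-enriched Rpl39l had 1 count in 1 library and Rpl10l had none, whereas their parents Rpl39 and Rpl10 measured 342 and 41.98 RPKM. Rpl10l, Rpl39l and Rps4y2 fell below the filter on low values and were not tested.

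No ribosomal protein gene was called changed between siQk and siNC. A call required p under 0.01 and an adjusted p under 0.1 in edgeR's quasi-likelihood test with TMM scaling. Of the 81 members tested 0 met it, beside 0.0079% of all 12665 genes tested (Qk alone). At an unadjusted p under 0.05 the count was also 0 members, beside 2.89% of all genes, and the smallest p of a member was 0.106 (Rpl7a). DESeq2, the edgeR exact test and the edgeR likelihood-ratio test also called 0 members, and 0 members had an unadjusted p under 0.05 with any of them. Groups that did not overlap were seen for 1 member, Rps29, beside 8.52% of all genes, and 4.45% of all genes shared its direction, with every siQk library above every siNC library. Leaving out 1 library gave no call either. Without siNC replicate 1, 4 members (Rps16, Rps19, Rpl7a and Rpl37, all above zero) had an unadjusted p under 0.05, beside 4.26% of all genes. Without siNC replicate 2 it was Rpl4 alone (1 member, beside 3.25% of all genes), and without siQk replicate 2 it was Rpl7a alone (1 member, beside 2.72%).

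The size of the differences was small against the spread between libraries. The log2 fold changes of siQk over siNC ran from -0.37 (Rpl3l) to 0.60 (Rpl13), and 79 of the 81 members lay within 0.5 of zero, as did 93.5% of all genes. In 14 of the 81 members the fold change exceeded its own SE, beside 33.8% of all genes. The median log2 fold change was 0.06 over the members and 0.00 over all genes, with 50 members above zero and 31 below. It was 0.06 for the 43 large subunit genes, 0.04 for the 31 small subunit genes and 0.08 for the stalk. This median depended on single libraries of both groups. Without siNC replicate 1 it was 0.18, with 63 members above zero, and without siNC replicate 2 it was -0.03, with 36 above zero. Without siQk replicate 1 it was 0.02, with 43 above zero, and without siQk replicate 2 it was 0.11, with 68 above zero. With a trend on exon length removed per library it was -0.01.

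**Figure D3:**
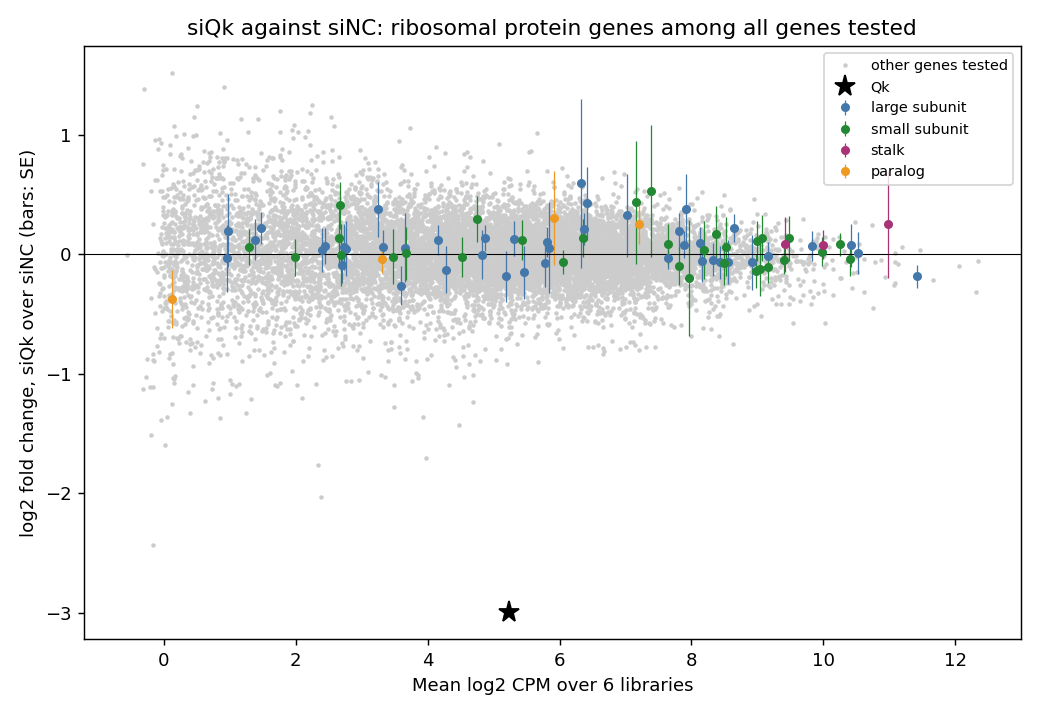
Log2 fold change of siQk over siNC against the mean log2 CPM over 6 libraries, with grey points for other genes tested and coloured points with SE bars for the 81 ribosomal protein genes tested. The members lie between -0.37 and 0.60 around the zero line, while Qk stands alone at -2.997.

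Among the canonical genes above zero, those with the smallest p were Rpl7a, Rpl37, Rps29, Rpl35a and Rps28. Rpl7a, a large subunit protein with 77.4% of its windows shared, measured 102, 66.7 and 65.7 RPKM in siNC and 129, 77.7 and 114 RPKM in siQk. Its log2 fold change was 0.43 ± 0.30 (SE) and its adjusted p in edgeR's quasi-likelihood test was 0.9996. siNC replicate 1 lay above siQk replicate 2, so the groups overlapped, and the fold change of Rpl7a was 0.27 without siQk replicate 1 and 0.66 without siNC replicate 1. Rps29, a zinc-binding protein of the small subunit, measured 17.6, 14.4 and 10.5 RPKM in siNC and 19.2, 18.4 and 19.7 RPKM in siQk. Every siQk library exceeded every siNC library, yet with a log2 fold change of 0.41 ± 0.20 (SE) edgeR's p was 0.137. The two-sided exact permutation test on RPKM gave 0.1 for Rps29, which is the smallest value that 3 against 3 allows.

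Rpl37, another zinc-binding protein of the large subunit, measured 314, 275 and 157 RPKM in siNC and 325, 312 and 348 RPKM in siQk (log2 fold change 0.38 ± 0.29, SE). Rpl35a measured 19.4, 16.3 and 11.1 RPKM in siNC and 19.1, 19.9 and 22.7 RPKM in siQk (0.38 ± 0.23). In each of these genes the lowest value was that of siNC replicate 3, and without it the log2 fold changes were 0.16 for Rpl37, 0.20 for Rpl35a and 0.25 for Rps29. On RPKM, which carry no TMM factor, Rpl35 also had groups that did not overlap (770 to 858 RPKM in siNC, 864 to 1087 RPKM in siQk). Rpl35, at the tunnel exit of the large subunit, is named after its values were seen.

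Among the canonical genes below zero, Rpl4 had the smallest p (0.213), with a log2 fold change of -0.19 ± 0.10 (SE). Its siQk values lay between 2196 and 2206 RPKM, just above the lowest siNC library, and with single libraries left out its fold change ran from -0.28 to -0.14 (without siNC replicates 2 and 1). Rpl5 measured 5.92, 6.08 and 7.43 RPKM in siNC and 6.31, 5.06 and 5.17 RPKM in siQk, a log2 fold change of -0.26 ± 0.16 (SE) that was -0.12 without siNC replicate 3. The remaining genes were Rpl15 (-0.18 ± 0.21), Rpl27a (-0.15 ± 0.22) and Rpsa (-0.14 ± 0.14), which is also known as the laminin receptor. Rpl15 and Rpl27a were lowest in siQk replicate 2, at 14.2 and 28.3 RPKM, and both were highest in siQk replicate 1, at 22.7 and 46.2 RPKM. Without siQk replicate 2 their fold changes were -0.02 and 0.02, and without siNC replicate 3 that of Rpsa was -0.04. All of these pairs of groups overlapped.

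As a set, the members differed more among the libraries of 1 group than between the groups. As deviations from each gene's own mean on the log2 CPM scale, the members had a median of 0.18, -0.16 and -0.06 in the controls and of 0.13, -0.11 and 0.07 after siQk, by replicate number. Over all genes these medians lay between -0.00 and 0.01. siNC replicate 1 was the highest library for 40 of the 81 members (49.4%, beside 19.1% of all genes), and siNC replicate 2 was the lowest for 34 (41.98%, beside 14.9%). The share of counts on the members was 2.94%, 2.36% and 2.27% in siNC and 2.78%, 2.44% and 2.69% in siQk. Its mean was 2.53% ± 0.361 in siNC and 2.64% ± 0.174 in siQk (SD, n = 3), a difference of 0.110 percentage points that was smaller than the SD of either group. Leaving out single libraries moved this difference between -0.0160 (without siNC replicate 3) and 0.317 (without siNC replicate 1).

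**Figure D4:**
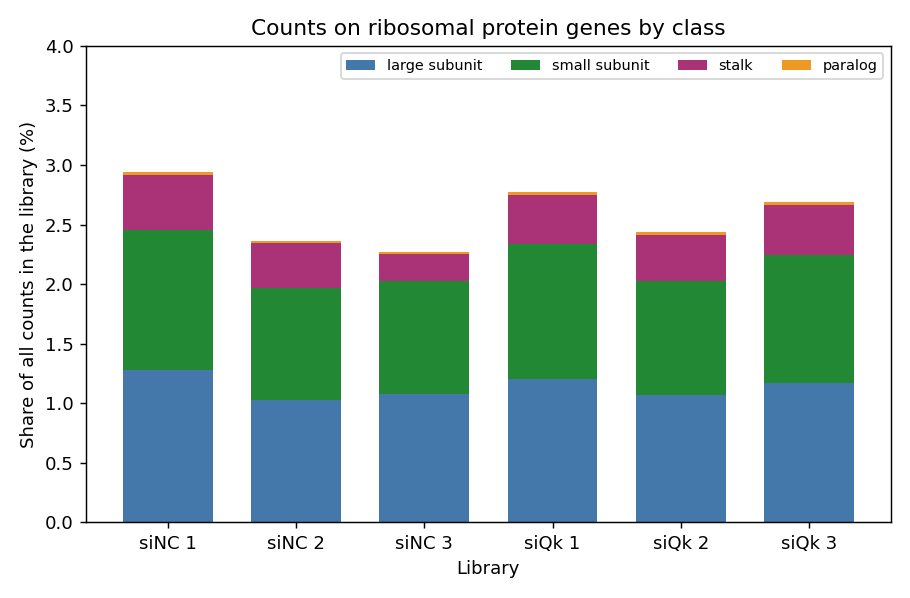
Percentage of all counts in each library that fell on ribosomal protein genes, stacked by class, with the axis starting at 0. Totals lie between 2.27% and 2.94%, and the stalk band is thinner in siNC replicate 3 than in the other 5 libraries.

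In siNC replicate 3, low values were about as frequent among the members as among all genes. Of the 81 members 16 lay more than 0.5 below the median of the other 5 libraries on the log2 scale (19.8%, beside 15.7% of all genes). These were 8 genes of the large subunit, 6 of the small subunit, and Rplp0 and Rplp1 of the stalk. Their exons were shorter than those of the other 65 members (median 558 against 740 bases in the files). Over the 81 members, Spearman's rho between exon length and the deviation of siNC replicate 3 was 0.49, beside 0.23 over all genes. In siQk replicates 2 and 3 the members' rho with exon length was -0.37 and -0.38, beside 0.01 and -0.07 over all genes. For siNC replicate 3, rho between the GC content of the members' mRNA and the deviation was -0.36. The part of length or GC content in these values was not tested.

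**Figure D5:**
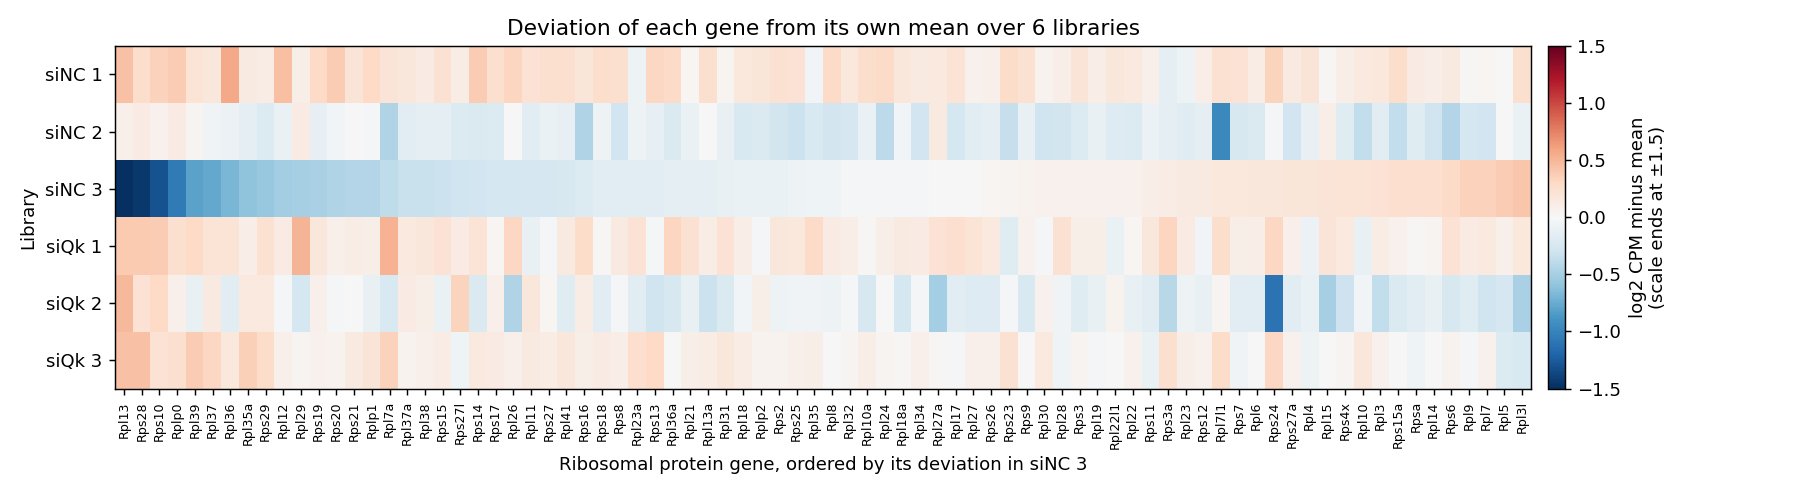
Deviation of log2 CPM from the gene's own mean over 6 libraries (colour scale ending at ±1.5) for ribosomal protein genes tested, 1 row per library, genes ordered by their value in siNC replicate 3. Rpl13, Rps28, Rps10 and Rplp0 are low in siNC replicate 3, and isolated low cells mark Rpl7l1 in siNC replicate 2 and Rps24 in siQk replicate 2.

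The 5 members with the largest spread over the libraries each owed it to 1 library. Rpl13 of the large subunit measured 111, 88.4 and 21.9 RPKM in siNC and 108, 117 and 112 RPKM in siQk. Rps28 of the small subunit measured 609, 564 and 177 RPKM in siNC and 672, 601 and 690 RPKM in siQk. Rps10, a small subunit protein that is ubiquitylated when ribosomes collide, measured 312, 262 and 95 RPKM in siNC and 322, 306 and 285 RPKM in siQk. In siNC replicate 3 these genes stood at 20.6%, 30.4% and 33.0% of the median of the other libraries on the TMM scale.

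The log2 fold changes of siQk over siNC of these genes followed that 1 library. They were 0.60 ± 0.71 for Rpl13, 0.53 ± 0.55 for Rps28 and 0.44 ± 0.51 for Rps10 (SE). Without siNC replicate 3 they were 0.17, 0.16 and 0.08. Rps24, a small subunit gene mutated in some cases of Diamond-Blackfan anaemia, showed the reverse case on the treated side. It measured 77, 61.5 and 66.0 RPKM in siNC and 76.5, 28.8 and 75.8 RPKM in siQk, so that its log2 fold change of -0.20 ± 0.48 became 0.13 without siQk replicate 2. Rpl7l1 was low in siNC replicate 2 alone, at 10.0 RPKM against 20.04 to 23.3 RPKM in the other 5 libraries.

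The stalk, the lateral protuberance through which the ribosome recruits translation factors, consists of Rplp0 and of Rplp1 and Rplp2, which Rplp0 anchors. Rplp0 measured 1901, 1619 and 667 RPKM in siNC and 1736, 1556 and 1732 RPKM in siQk. Rplp1 measured 1801, 1478 and 1034 RPKM in siNC and 1571, 1385 and 1679 RPKM in siQk, and Rplp2 2513, 1943 and 1978 RPKM in siNC and 2211, 2397 and 2311 RPKM in siQk. Rplp0 and Rplp1 were lowest in siNC replicate 3, whereas Rplp2 there was close to siNC replicate 2. The 3 stalk genes took 10.2% of the members' counts in siNC replicate 3 and 14.97% to 16.2% in the other libraries. The large subunit genes took 47.6% there and 43.3% to 43.6% elsewhere. Fold changes of the stalk genes were 0.25 ± 0.45, 0.08 ± 0.23 and 0.08 ± 0.12 on the log2 scale (SE), in the order Rplp0, Rplp1 and Rplp2. Each turned its sign without 1 control library, to -0.07 for Rplp0 and -0.09 for Rplp1 without siNC replicate 3, and to -0.01 for Rplp2 without siNC replicate 2.

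A RefSeq promoter window (GRCm38.p6, 250 bases before to 50 after an annotated start) was matched for 63 of the 84 members, with 75 starts. A cytosine at the annotated start followed by at least 4 pyrimidines was found at 13 of the 75 starts (17.3%), beside 2.51% of 32851 starts of all genes. Such a tract began within 15 bases on either side of the start in 64.0% of member starts and 40.1% of all. On either strand of the 300 bases, CGGAAG was present in 60.0% of member windows and 16.9% of all, CTTTCC in 49.3% and 26.6%, GGGCGG in 60.0% and 35.7%, and TATAAA in 9.33% and 13.6%. The median number of CG dinucleotides was 21 per member window and 7 over all windows. These are matches of letters and not sites.

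Start windows are printed for some of the members whose levels are described above, chosen to have a tract at the annotated start or none. Members with a tract away from the start, such as Rpl4 (9 bases) and Rpl13 (7 bases), are left out. Each printed window has 30 bases, of which the 16th is the annotated start. The longest run of a cytosine and at least 4 further pyrimidines is in capitals. The windows lie at chr17:27635230-27635259 (Rps10, minus strand), chr2:39005117-39005146 (Rpl35, minus), chr4:86857353-86857382 (Rps6, minus), chr7:141447636-141447665 (Rplp2, plus), chr3:90213634-90213663 (Rps27, minus), chr17:33824548-33824577 (Rps28, minus), chr15:5116598-5116627 (Rpl37, plus) and chr17:46782642-46782671 (Rpl7l1, minus):
Rps10: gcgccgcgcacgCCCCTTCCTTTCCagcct
Rpl35: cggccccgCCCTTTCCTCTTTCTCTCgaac
Rps6: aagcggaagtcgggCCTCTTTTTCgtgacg
Rplp2: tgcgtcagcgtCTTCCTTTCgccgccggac
Rps27: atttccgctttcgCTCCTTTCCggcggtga
Rps28: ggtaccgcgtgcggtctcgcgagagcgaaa
Rpl37: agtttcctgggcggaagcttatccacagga
Rpl7l1: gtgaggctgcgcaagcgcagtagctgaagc
In the first 5 windows the annotated start falls on a cytosine inside the tract, and in the last 3 there is no tract of that length. This holds for the annotated RefSeq start only, since the starts used in these cells were not measured. The window of Rpl37 ends before the GENCODE M21 start of that gene (chr15:5116645), so a tract at that start would not be seen. Genes with a tract were found at the top (Rplp2, 2226 RPKM) and at the bottom (Rps6, 4.64 RPKM) of the order of levels. Rps10, with a tract of 13 bases, and Rps28, with none, were both low in siNC replicate 3.

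Other genes encode ribosomal or ribosome-bound proteins under names outside the selection. Gnb2l1, which encodes the scaffold Rack1 on the small subunit, measured 2331, 1684 and 1782 RPKM in siNC and 2000, 1753 and 1878 RPKM in siQk. Fau, which encodes a fusion with Rps30, and Rpl36al, a paralog of Rpl36a, had log2 fold changes of -0.19 ± 0.16 and -0.01 ± 0.11 (SE). With single libraries left out these ran from -0.30 to -0.09 for Fau (without siNC replicate 2 and siQk replicate 2) and from -0.09 to 0.09 for Rpl36al (without siNC replicates 2 and 1). None of these genes was called, and their groups overlapped.

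The genes that surround the ribosomal proteins in the pathway were also without a call. Of 19 other TOP mRNA genes, mainly translation factors, 6 lay above zero and 13 below (median log2 fold change -0.06). The members of this list with the smallest p were the elongation factor Eef2 (-0.32 ± 0.16, SE), the initiation factor Eif4b (-0.41 ± 0.30) and Eef1d (-0.20 ± 0.16). Eif4b was at -0.21 without siNC replicate 3, Eef1d at -0.05 without siNC replicate 1, and Eef2 at -0.20 without siQk replicate 2. Of 49 genes of ribosome biogenesis 26 lay above and 23 below zero (median 0.02), and of 7 dedicated chaperones of ribosomal proteins 4 lay above and 3 below (median 0.09). The smallest p in these lists belonged to Nip7, a factor of subunit assembly (0.28 ± 0.14), the RNA polymerase I factors Rrn3 (-0.41 ± 0.36) and Taf1a (0.53 ± 0.50), and the chaperones Bccip (0.26 ± 0.20), Grwd1 (0.13 ± 0.17) and Heatr3 (-0.12 ± 0.20). Several of these values rested on 1 library. Without siQk replicate 2 they were -0.17 for Rrn3, -0.11 for Taf1a, 0.05 for Bccip and -0.05 for Grwd1, without siNC replicate 3 that of Heatr3 was 0.09, and without siNC replicate 2 that of Nip7 was 0.17.

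In a list of 21 regulators of ribosome production, 15 lay below zero and 6 above (median log2 fold change -0.08, beside 0.00 over all genes). Myc, a transcription factor that drives ribosome synthesis, measured 99.7, 79.2 and 101 RPKM in siNC and 79.8, 60.4 and 70.4 RPKM in siQk. Rptor, the subunit of mTORC1 that recruits its substrates, measured 12.1, 14.2 and 14.2 RPKM in siNC and 10.1, 11 and 11.1 RPKM in siQk, with no overlap of the groups. Their unadjusted p was 0.0333 and 0.0402 in edgeR's quasi-likelihood test, and both adjusted p were 0.9996. These 2 of the 21 regulators were under 0.05, beside 2.89% of all genes, and Rptor was the only 1 of the 21 without overlap, beside 8.52%. The GTPase Rheb, which activates mTORC1, had a log2 fold change of -0.21 ± 0.15 (SE), which was -0.05 without siNC replicate 3.

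Genes named for proteins of the mitochondrial ribosome were set beside these in the same cells. They were taken by symbol alone (Mrpl or Mrps plus a number), and whether each product is part of that ribosome was not checked. Of these 76 genes 47 lay above and 29 below zero (median log2 fold change 0.04), and 0 were called. Groups did not overlap for 8 of the 76, beside 8.52% of all genes, and 1 of the 76 (Mrps36) had an unadjusted p under 0.05. Mrps36 measured 29.4, 40.0 and 25.8 RPKM in siNC and 45.3, 41.7 and 48.1 RPKM in siQk (0.49 ± 0.18, SE). Mrpl42 measured 199, 156 and 186 RPKM in siNC and 213, 249 and 250 RPKM in siQk (0.37 ± 0.14), and Mrpl54 had a fold change of 0.33 ± 0.24, which was 0.15 without siNC replicate 3 and 0.55 without siNC replicate 1. Over the 6 libraries, the median deviation from each gene's own mean ran from -0.16 to 0.18 for the cytosolic ribosomal protein genes and from -0.10 to 0.06 for the mitochondrial ones. It ran from -0.16 to 0.19 for the other TOP mRNA genes, from -0.23 to 0.17 for the biogenesis genes and from -0.23 to 0.19 for the chaperones, so that swings of this size between libraries were also seen outside the cytosolic ribosomal protein genes. As these are bulk libraries, fewer cells of a kind and less RNA per cell cannot be told apart in any of these values.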

How the data were processed

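The authors selected poly-A RNA with a TruSeq kit that keeps no strand, sequenced pairs of 75-base reads, aligned them with OLego (build mm10 per the labels) and counted genes with Quantas; versions are not given in the sources used here. The deposited files hold an expected count, an exon length and an RPKM per gene. The authors' RPKM, scaled by the library's total counts, were used for levels. Expected counts were rounded to whole numbers, scaled by TMM, filtered at a mean log2 CPM above 0 (12665 genes) and tested with edgeR 4.0.16 in R 4.3.3 (quasi-likelihood, all 6 libraries). SE come from the spread of log2 CPM (prior count 2). Members and gene lists were chosen with earlier results of these data known.

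Named genes were paralogs with their parents, called members, the 5 canonical members with the smallest p on each side, the 5 highest and 5 lowest by RPKM, stalk genes and Rpsa, the 5 with the largest spread, ribosomal genes outside the selection, up to 3 per list, and Qk. Alternatives were 3 other scalings, TMM without members, 2 other filters, DESeq2 1.42.0, the edgeR exact and likelihood-ratio tests, a replicate block, removal of a length trend (loess, span 0.5) and leaving out each library. Scripts were tested on simulated data. Precision is set by the spread of 3 libraries per group, since counting error is small for all but the lowest members. Values of some single genes are not reported here.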

Additional observations from a re-analysis of the deposited data

How the results depend on the processing

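No alternative called a ribosomal protein gene changed, and the median log2 fold change of the members moved by less than its spread between replicates under each, from -0.03 to 0.18 when 1 library was left out. The count of all genes called was 1 and became 5 with the edgeR exact test, 5 with the edgeR likelihood-ratio test and 19 with DESeq2 (cause not tested). Leaving out 1 library gave 0 to 1 called genes. The log2 fold change of Qk lay between -3.19 and -2.67 there, and its adjusted p rose to 0.125 without siNC replicate 1. Taf1a ran from -0.11 (without siQk replicate 2, the library in which it was highest) to 0.77 (without siQk replicate 1); no other named gene whose log2 fold change exceeded its SE turned its sign. The difference in share of counts was 0.105 percentage points without the 100 most abundant other genes.

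Whether the replicate numbers pair the libraries was not settled. The correlation across genes between libraries of 1 number, as deviations from their group means, was 0.21, 0.02 and -0.17. With 3 libraries per group these values cannot decide it, and the main fit treats the libraries as unpaired. With a replicate block 1 gene was called, the members' median was 0.08, and 2 of 81 members (Rpl7a and Rpl13) had an unadjusted p under 0.05, beside 3.54% of all genes.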
